A study of Mus musculus with 8 samples.

Results

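Complement genes were examined in the hippocampus of Tg6799 mice, a transgenic model of Alzheimer's disease. The set held 9 genes, namely the C1q chains C1qa, C1qb and C1qc, the components C3 and C4b, the receptors C3ar1, C5ar1 and Itgam, and the inhibitor Serping1. A probe set was taken for a gene when the annotation gave that symbol alone, and the brightest on average over all 8 arrays was used to represent it. This gave 12 probe sets for 7 of the 9 genes, out of 45037 probe sets and 18193 genes in all. C3 was named by no probe set in the annotation used, and the sole probe set of C4b was annotated to C4a as well, so C3 and C4b were not analysed here. Each of the groups MT8m, MT4m, LM8m and LM4m held 2 one-colour Affymetrix mouse genome arrays. MT stands for female Tg6799 mice at 8 or 4 months, which carry mutant human APP with the Swedish, Florida and London mutations and human PS1 with a pair of familial mutations, both driven by Thy1 promoter sequence in neurons. LM stands for their female littermates of the same ages, and the labels give Tg6799 as the strain of both. The design text lists 2 LM and 4 MT mice at each age for the screens of mRNA and miRNA, while each group has 2 arrays here. Neither the labels nor the methods say which mice were hybridised to which array or whether RNA was pooled, and every p-value here therefore reflects array-to-array spread that could be technical in part.

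Complement is a cascade of plasma and tissue proteins that tags material for uptake by phagocytes. The classical pathway starts when C1q, a molecule built of A, B and C chains, binds its target, after which C4 and C3 are cleaved and their fragments are read by receptors on myeloid cells. In the brain, microglia are the main source of C1q and also carry complement receptors, and in mice C1q gathers at amyloid plaques and has been tied to the loss of synapses.

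Before any comparison, the labels were checked with genes that stood apart in earlier results of these arrays. Thy1, whose promoter sequence drives the transgenes, read 9.90 and 11.79 on the MT8m arrays and 11.73 and 11.82 on the MT4m arrays, against 9.92 and 9.53 in LM8m and 9.96 and 9.76 in LM4m (log2 values). Cst7, a cystatin of plaque-associated microglia, read 1.75 and 8.03 in MT8m and 6.69 and 5.92 in MT4m, against 2.08 and 2.14 in LM8m and 2.18 and 2.06 in LM4m. Gfap, a gene of astrocytes, read 7.17 and 9.80 in MT8m and 8.45 and 8.21 in MT4m, against 7.04 and 6.99 in LM8m and 7.31 and 7.20 in LM4m. MT8m replicate 1 read like the littermates for all of these genes. For choroid plexus genes the same array read like the other MT arrays. Ttr, the transthyretin gene, read 10.69 on it and 10.66 to 10.97 on the other MT arrays, against 12.43 to 12.83 on the LM arrays, and Kcnj13 read 3.61 on it, against 6.26 to 7.87 on the LM arrays. These values do not settle its label, so it is called the library labelled MT8m replicate 1 below, and the main results are given without it and without its partner. A second array stood apart in RNA quality, in which the Gapdh control probe sets read higher at the 3′ than at the 5′ end by 2.19 in LM4m replicate 1 and by 0.66 to 1.42 elsewhere (log2).

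The 3 C1q genes are consecutive protein-coding genes on chromosome 4, in the order C1qb, C1qc and C1qa, between Ephb2 and Epha8. Promoters are shown for 2 of these neighbours, whose values were alike across arrays, and for the receptors C3ar1 and C5ar1. Both receptors were highest on MT8m replicate 2, C5ar1 only narrowly, and C5ar1 was dim and varied little. Each line holds the 250 bases before the gene's start (RefSeq, GRCm38.p6), at chr4:136886201-136886450 for C1qb, chr4:136892915-136893164 for C1qc, chr6:122856158-122856407 for C3ar1 and chr7:16259339-16259588 for C5ar1, all on the minus strand and written 5′ to 3′. Capitals mark AGGAAG or its reverse complement CTTCCT, a purine-rich hexamer that holds the shorter GGAA core bound by ETS factors such as PU.1 of myeloid cells. GGAA outside this hexamer is not marked, and it also occurs in the C3ar1 line.
C1qb: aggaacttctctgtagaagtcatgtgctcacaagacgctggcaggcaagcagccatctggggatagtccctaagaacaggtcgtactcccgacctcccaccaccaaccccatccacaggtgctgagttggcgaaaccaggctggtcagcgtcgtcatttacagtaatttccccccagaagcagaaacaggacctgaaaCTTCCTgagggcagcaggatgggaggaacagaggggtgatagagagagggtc
C1qc: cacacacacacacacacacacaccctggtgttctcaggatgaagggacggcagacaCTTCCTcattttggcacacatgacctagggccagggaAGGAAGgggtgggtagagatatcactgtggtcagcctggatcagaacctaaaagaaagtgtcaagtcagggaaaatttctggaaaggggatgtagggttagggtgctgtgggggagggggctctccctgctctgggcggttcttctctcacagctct
C3ar1: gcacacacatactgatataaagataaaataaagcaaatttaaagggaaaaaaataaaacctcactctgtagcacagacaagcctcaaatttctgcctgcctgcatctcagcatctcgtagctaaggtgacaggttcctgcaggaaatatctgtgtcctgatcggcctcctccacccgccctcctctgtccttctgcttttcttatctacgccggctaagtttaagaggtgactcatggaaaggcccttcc
C5ar1: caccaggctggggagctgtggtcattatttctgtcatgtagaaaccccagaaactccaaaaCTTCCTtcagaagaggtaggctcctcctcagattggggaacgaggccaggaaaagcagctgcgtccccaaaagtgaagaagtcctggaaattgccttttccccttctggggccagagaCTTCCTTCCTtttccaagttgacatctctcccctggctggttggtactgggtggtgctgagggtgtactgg
The hexamer was found once in C1qb, ending 47 bases before the start, in 2 places in C1qc, in 3 places in C5ar1 (a pair of these overlapping) and once in the promoter of Itgam, and 0 times in C3ar1. Among 32851 promoters of the same length, 29.5% held it on one strand or the other. The interferon-stimulated response element, a repeat of GAAA with any 2 bases between the copies (2.98% of promoters) and the STAT site TTCNNNGAA (7.02%) were found in 0 of the 5 promoters searched, with both strands read. These matches describe letters in the window and not bound sites.

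C1qa encodes the A chain of C1q. It read 6.97 and 9.24 in MT8m and 8.16 and 8.06 in MT4m, against 6.93 and 7.06 in LM8m and 6.76 and 6.65 in LM4m (log2 values). MT8m replicate 2 was the highest array, both MT4m arrays lay above all 4 LM arrays, and the library labelled MT8m replicate 1 lay between the LM8m arrays. The difference of MT8m minus LM8m was 1.11 ± 0.56 (SE, n = 2 each; 95% interval −0.18 to 2.40), and that of MT4m minus LM4m was 1.40 ± 0.56 (0.11 to 2.69), a 2.65-fold difference. Neither passed limma's test (adjusted p = 0.9998 and 0.944). In bulk tissue, more cells of a type and more RNA per cell cannot be told apart.

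C1qb encodes the B chain and was read by 3 probe sets. The brightest, 1437726_x_at, gave 6.11 and 9.61 in MT8m and 8.47 and 7.68 in MT4m, against 6.84 and 6.33 in LM8m and 7.03 and 6.40 in LM4m. The library labelled MT8m replicate 1 was the lowest of all 8 arrays here, and MT8m replicate 2 the highest. Its differences were 1.27 ± 0.90 at 8 months (95% interval −0.79 to 3.34) and 1.36 ± 0.90 at 4 months (−0.71 to 3.42). The second probe set, 1434366_x_at, followed it closely, with an averaged difference of 1.09 ± 0.54. The third, 1417063_at, gave 6.46 and 8.88 in MT8m and 7.99 and 7.60 in MT4m, against 5.90 and 6.47 in LM8m and 6.06 and 6.05 in LM4m. On this probe set the library labelled MT8m replicate 1 lay between the LM8m arrays and above both LM4m arrays, and the genotype difference averaged over ages was 1.61 ± 0.44 (limma adjusted p = 0.757), against 1.31 ± 0.64 on the brightest.

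C1qc encodes the C chain. It read 5.44 and 7.88 in MT8m and 6.45 and 6.19 in MT4m, against 5.11 and 5.20 in LM8m and 5.32 and 4.85 in LM4m. Here every MT array, the library labelled MT8m replicate 1 included, lay above every LM array, although that library, at 5.44, was close to the highest LM array, LM4m replicate 1, at 5.32. The difference was 1.50 ± 0.62 at 8 months (95% interval 0.09 to 2.92) and 1.24 ± 0.62 at 4 months (−0.18 to 2.65), with adjusted p = 0.9998 and 0.944 by limma.

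**Figure D1:**
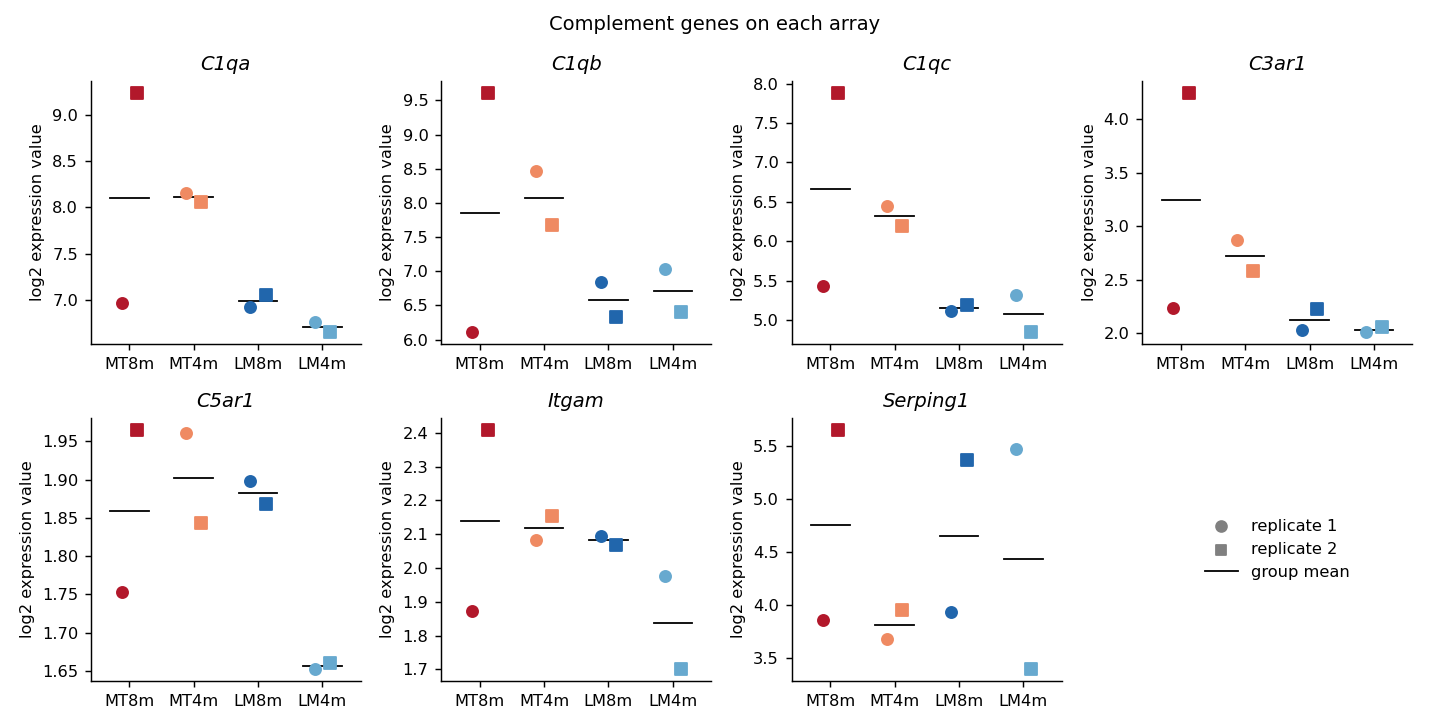
Log2 expression value (y axis) of the 7 complement genes on each of the 8 arrays, placed by group along the x axis; a circle is the first replicate, a square the second, and a line the group mean. C1qa, C1qb and C1qc read 9.24, 9.61 and 7.88 on MT8m replicate 2 and 6.97, 6.11 and 5.44 on the library labelled MT8m replicate 1.

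C3ar1 encodes the receptor of C3a, a fragment released when C3 is cleaved. Its brightest probe set, 1442082_at, read 2.24 and 4.25 in MT8m and 2.87 and 2.58 in MT4m, against 2.02 and 2.22 in LM8m and 2.01 and 2.06 in LM4m. The groups did not overlap at either age, but at 8 months only by 2.24 in the library labelled MT8m replicate 1 against 2.22 in LM8m replicate 2. The difference was 1.12 ± 0.51 at 8 months (95% interval −0.05 to 2.29) and 0.69 ± 0.51 at 4 months (−0.47 to 1.86). Averaged over ages it was 0.91 ± 0.36 on this probe set, 0.67 ± 0.26 on 1419482_at and 0.39 ± 0.20 on 1419483_at, so the 3 probe sets shared a direction and differed in size. The mean of 1442082_at lay close to the median of all probe set means, 2.47, and small differences of dim probe sets may be compressed.

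C5ar1, the receptor of the C5a fragment, was dim. Probe set 1422190_at read 1.75 and 1.97 in MT8m and 1.96 and 1.84 in MT4m, against 1.90 and 1.87 in LM8m and 1.65 and 1.66 in LM4m. The 4-month groups did not overlap while the 8-month groups did, and all values lay within a narrow range below the median of probe set means. The difference was −0.02 ± 0.13 at 8 months (95% interval −0.32 to 0.27) and 0.25 ± 0.13 at 4 months (−0.05 to 0.54). The other probe set, 1439902_at, had an averaged difference of 0.19 ± 0.14, and its MT8m replicate 2, at 1.96, was its highest array.

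Itgam encodes CD11b, the alpha chain of complement receptor 3, which binds fragments of C3 fixed on a target. It read 1.87 and 2.41 in MT8m and 2.08 and 2.15 in MT4m, against 2.10 and 2.07 in LM8m and 1.98 and 1.70 in LM4m. MT8m replicate 2 was again the highest array and LM4m replicate 2 the lowest. The difference was 0.06 ± 0.19 at 8 months (95% interval −0.37 to 0.48) and 0.28 ± 0.19 at 4 months (−0.15 to 0.71). Itgb2, which encodes the beta chain that pairs with CD11b, read 2.15 and 4.75 in MT8m and 3.66 and 3.20 in MT4m, against 2.23 and 2.32 in LM8m and 2.52 and 2.33 in LM4m. Its averaged difference was 1.09 ± 0.46 (limma adjusted p = 0.853), against 0.17 ± 0.13 for Itgam, and both chains were highest on MT8m replicate 2.

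**Figure D2:**
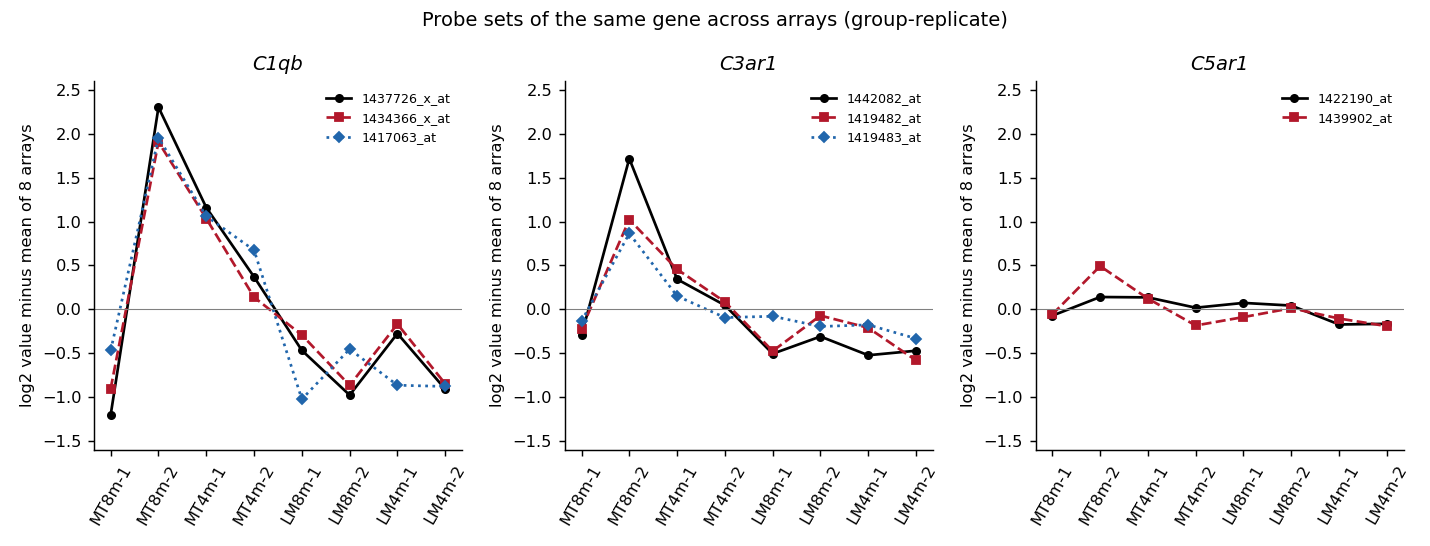
Log2 value minus the mean of the 8 arrays (y axis) for each probe set of C1qb, C3ar1 and C5ar1 on each array (x axis, group and replicate). Probe sets of C1qb and of C3ar1 shared the high value of MT8m replicate 2, while 1417063_at of C1qb ordered the LM arrays differently from the other C1qb probe sets. For C5ar1, 1422190_at read nearly the same on MT8m replicate 2 (log2 value 1.97) and MT4m replicate 1 (1.96).

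Serping1 encodes the C1 inhibitor, a serpin that inactivates the proteases bound to C1q. It read 3.86 and 5.65 in MT8m and 3.68 and 3.95 in MT4m, against 3.94 and 5.37 in LM8m and 5.47 and 3.40 in LM4m. The high arrays were MT8m replicate 2, LM8m replicate 2 and LM4m replicate 1, so its order across arrays was unlike that of C1q. The difference was 0.10 ± 0.76 at 8 months (95% interval −1.64 to 1.85) and −0.62 ± 0.76 at 4 months (−2.37 to 1.13). Without LM4m replicate 1 the 4-month difference was 0.42, and without LM4m replicate 2 it was −1.66, so that single arrays set its sign. The mean of 10 marker genes of meninges and fibroblasts, each centred on its own mean, was 1.22 on LM8m replicate 2 and 1.19 on LM4m replicate 1 and between −0.67 and −0.14 on the other 6 arrays. The mean of 8 reactive astrocyte genes was 1.56 on MT8m replicate 2 and between −0.45 and 0.13 on the others. The part of these cells in the values of Serping1 was not tested.

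At 8 months, the comparison of MT8m with LM8m asked how the genes stood in the late stage. By limma, 0 of the 7 genes passed (adjusted p under 0.05; background 0.02% of probe sets). C1qc alone was higher at an unadjusted p under 0.05 (background 1.6%), as was the C1qb probe set 1417063_at, which does not stand for the gene (limma unadjusted p = 0.043). Groups did not overlap, MT8m higher, for 2 genes, C1qc and C3ar1 (background 15.2%). The median difference of the 7 genes was 1.11, against 0.01 over all probe sets. These values turned on which MT8m array was kept. Without the library labelled MT8m replicate 1, 4 genes rose by the same test (background 0.211%), with C1qa at 2.24 ± 0.15 (adjusted p = 0.00712), C1qb at 3.02 ± 0.39 (0.0445), C1qc at 2.73 ± 0.22 (0.0111) and C3ar1 at 2.12 ± 0.18 (0.0117). Those values rest on a single MT8m array, assumed to vary as the other groups do, and since the library was doubted on related microglial values they are no independent evidence. Over all alternatives, the adjusted p of each of these 4 genes reached 1. Without MT8m replicate 2 instead, 0 genes passed and the median was −0.13, with C1qc at 0.28, C3ar1 at 0.11, C1qa at −0.02, C5ar1 at −0.13, Itgam at −0.21, C1qb at −0.48 and Serping1 at −0.79.

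At 4 months, the early stage, MT4m and LM4m held no MT8m array. Again 0 of the 7 genes passed by limma (background 0%), and C1qa alone was higher at an unadjusted p under 0.05 (background 1.78%). The C1qb probe set 1417063_at, which does not stand for the gene, was higher by this rule too (limma unadjusted p = 0.022). Groups did not overlap, MT4m higher, for 6 genes, all but Serping1 (background 17.1%). The median difference was 0.69, against −0.0019 over all probe sets. Since all 4 groups shared 1 estimate of the spread, the gap between the MT8m arrays entered this test too. With the 4-month arrays fitted alone, C1qa rose in MT4m by 1.40 ± 0.13 (limma adjusted p = 0.0483, background 0.0533%). It was the sole gene of the 7 to do so. Leaving out one MT8m array or the other gave the same difference and error, since both amount to the same fit of the 4-month groups. Each of these settings removes the gap between the MT8m arrays from the spread, so they are not separate support. Under the other alternatives C1qa did not pass, with adjusted p up to 1.00.

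Averaged over ages, 0 of the 7 genes passed by limma (background 0.06%), and C1qa, C1qc and C3ar1 were higher at an unadjusted p under 0.05 (background 2.54%). So was the C1qb probe set 1417063_at, which does not stand for the gene (limma unadjusted p = 0.0059). C1qa differed by 1.26 ± 0.40 (95% interval 0.35 to 2.17), C1qc by 1.37 ± 0.44 (0.37 to 2.37) and C3ar1 by 0.91 ± 0.36 (0.08 to 1.73). All MT arrays lay above all LM arrays for 2 genes, C1qc and C3ar1 (background 1.46%). Without the library labelled MT8m replicate 1, 4 genes rose (background 0.315%), with differences of 1.82 for C1qa, 2.19 for C1qb, 1.98 for C1qc and 1.41 for C3ar1. Without MT8m replicate 2 instead, the differences were 0.69 for C1qa, 0.44 for C1qb, 0.76 for C1qc and 0.40 for C3ar1. Each of these fits rests on a single MT8m array, and the gap between the MT8m arrays is absent from its spread. The library was doubted on related microglial values, so the 4 genes that rose without it are no independent evidence of a genotype difference.

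**Figure D3:**
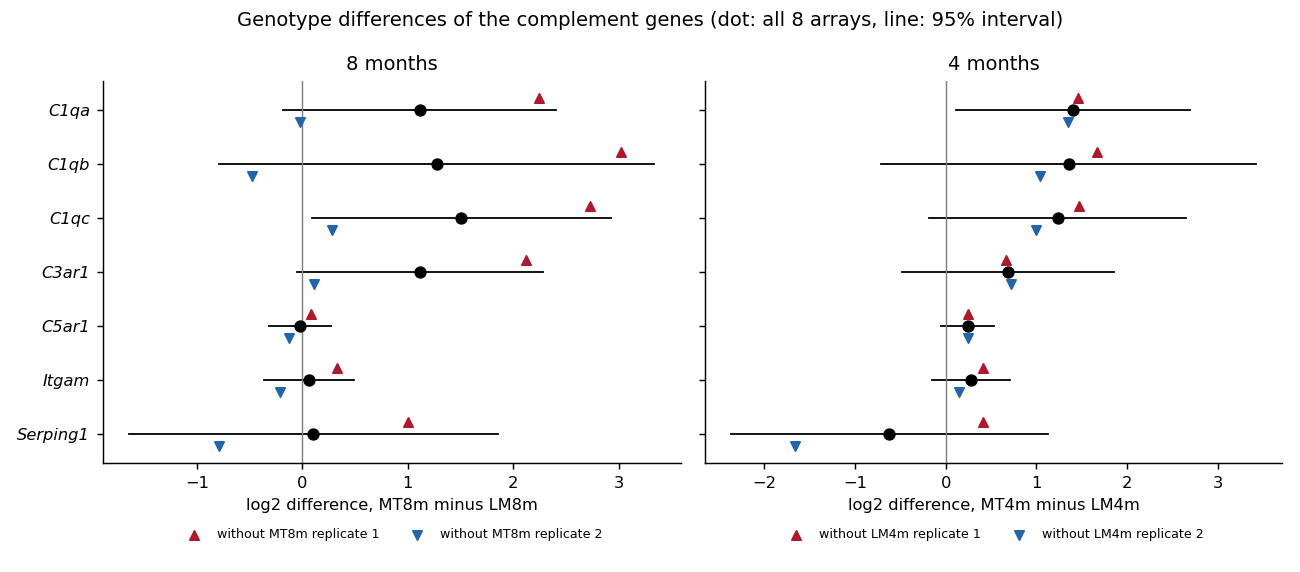
Log2 genotype difference (x axis) of each complement gene (y axis) at 8 months (left) and 4 months (right), with dots for the fit on all 8 arrays, lines for 95% intervals and triangles for fits that leave out an array of the named group. At 8 months C1qb lay at 3.02 or −0.48 depending on the MT8m array left out, while at 4 months C1qa lay within 1.35 to 1.46.

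The age differences, 8 minus 4 months, asked whether the genes stood higher in the older mice. In MT, 0 genes passed by limma (background 0%), 0 had an unadjusted p under 0.05 (background 5.7%), and the median was 0.02. C1qa differed by −0.01 ± 0.56 (95% interval −1.30 to 1.28) and C3ar1 by 0.52 ± 0.51 (−0.65 to 1.68). Without the library labelled MT8m replicate 1 the median was 1.52, with C1qa at 1.12 and C3ar1 at 1.52. Without MT8m replicate 2 the median was −0.49, with C1qa at −1.14 and C3ar1 at −0.49, and 0 genes passed in either case. In LM, 0 genes passed (background 0%), with 0 at an unadjusted p under 0.05 (background 3.45%), while LM8m arrays lay above both LM4m arrays for 3 genes, C1qa, C5ar1 and Itgam (background 15%). Their differences were 0.29 ± 0.56, 0.23 ± 0.13 and 0.24 ± 0.19. The genotype difference at 8 months minus that at 4 months passed for 0 genes (background 0%), with intervals that stayed wide, such as −2.12 to 1.53 around −0.29 for C1qa. That C1qa value was 0.84 without the library labelled MT8m replicate 1 and −1.42 without MT8m replicate 2, and 0 genes passed in either case. In the F test over the 4 groups, which follows the study's design most closely, 0 genes passed (background 0.0133%) and 0 had an unadjusted p under 0.05 (background 4.89%), although the C1qb probe set 1417063_at, which does not stand for the gene, did (limma adjusted p = 0.975).

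The C1q genes and marker genes of microglia were highest on the same 3 arrays, MT8m replicate 2 and both MT4m arrays. The mean of the centred C1qa, C1qb and C1qc values was −0.69 and 2.05 in MT8m and 0.83 and 0.45 in MT4m, against −0.57 and −0.67 in LM8m and −0.49 and −0.90 in LM4m. The mean of 11 microglial genes, all 11 above the median brightness, was −0.58 and 1.42 in MT8m and 0.91 and 0.56 in MT4m, against −0.81 and −0.31 in LM8m and −0.54 and −0.65 in LM4m. The difference between these means was 0.63 on MT8m replicate 2 and between −0.35 and 0.24 on the other arrays. C1q thus stood above the microglial list on that array most of all. The mean of 8 genes of plaque-associated microglia also stood above that list there, at 1.74, so this was not particular to C1q. Among the LM arrays the orders differed, since LM8m replicate 2 was the highest for microglia but below LM8m replicate 1 for C1q, and the microglial gene Fcrls was lowest on MT8m replicate 2, at 3.67. Of the 6 measured genes of blood neutrophils and monocytes, 1 lay above the median brightness, and their mean stayed within −0.11 and 0.12. Choroid plexus genes, 9 in number, were lower on all MT arrays (−1.25 to −0.997) than on LM arrays (0.63 to 1.86). The part of any of these cell types in the complement values was not tested.

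Over the 8 arrays, the genes most like the mean C1q profile, of 18186 compared, were Gfap, Fcer1g, Itgb2, Ccl3, Ptprc, AU020206, Fcgr3 and Plek. Likeness was the root mean square difference of centred log2 values, which ran from 0.148 for Gfap to 0.233 for Plek, where the profile itself had a root mean square of 0.96. Gfap is an astrocyte filament protein, Fcer1g and Fcgr3 belong to antibody receptors, and Ptprc is the leukocyte antigen CD45. The members C1qc, C1qa, C1qb and C3ar1 lay at 0.144, 0.186, 0.273 and 0.349, while Itgam, C5ar1 and Serping1 lay at 0.805, 0.883 and 1.06. The C1q genes make up the profile, so their nearness to it is built in. Values were not scaled, so a gene that varies little, such as Itgam or C5ar1, lies towards 0.96 whatever its order across arrays. This order is a description over arrays that share groups, and MT8m replicate 2 weighs heavily in it.

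**Figure D4:**
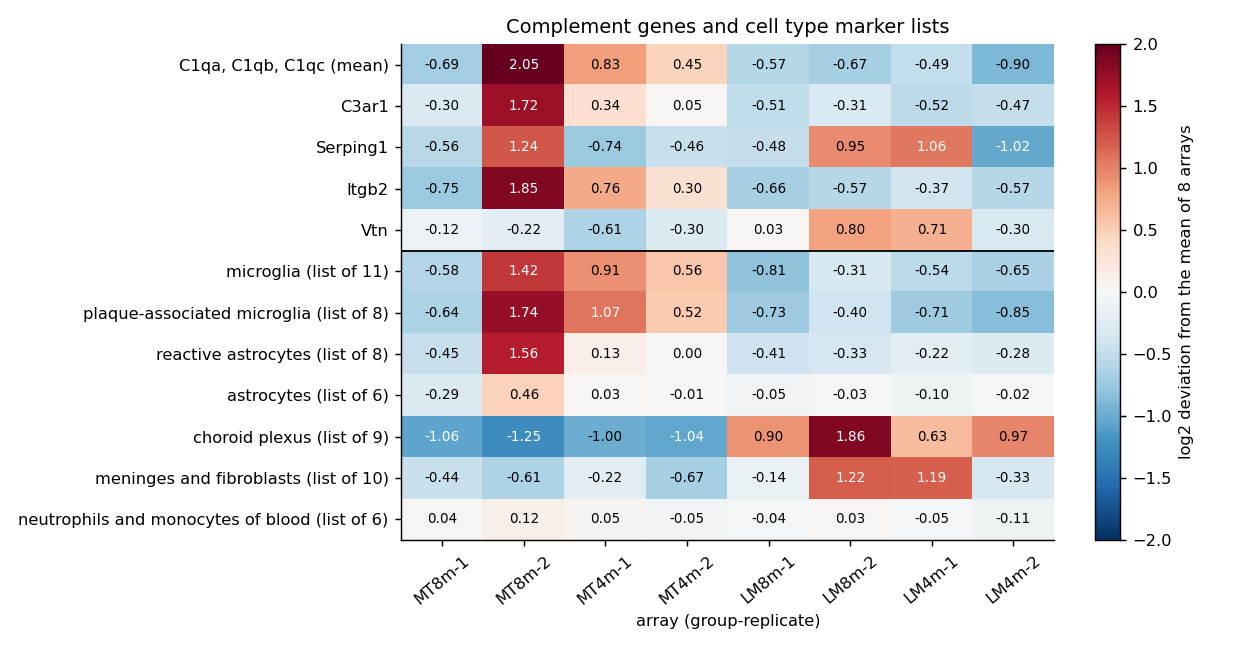
Log2 deviation from the mean of the 8 arrays (colour and printed value) for complement genes (above the line) and means of marker lists (below it), with arrays as columns. C1q, C3ar1 and Itgb2 had their highest value on MT8m replicate 2, as microglia did at 1.42, whereas the meninges list was high on LM8m replicate 2 and LM4m replicate 1 and Serping1 on these and on MT8m replicate 2.

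The rest of the pathway was described with a list of 49 other complement genes, of which 39 were measured and 15 lay above the median brightness. With all 8 arrays 0 passed by limma in the genotype and age differences and the interaction. Without the library labelled MT8m replicate 1, Itgb2 differed by 2.47 at 8 months and 1.74 averaged over ages. Without MT8m replicate 2 instead, its values were −0.13 and 0.44. Each of these fits rests on a single MT8m array, and the library was doubted on related microglial values, so they are no independent evidence. At an unadjusted p under 0.05 with all 8 arrays, 0 of the 39 were higher (background 1.6%) and 1 lower (1.79%) at 8 months. At 4 months 1 was higher (1.78%) and 2 lower (3.08%), and averaged over ages 3 were higher (2.54%) and 4 lower (3.22%). By the same rule 3 of the 39 were called for age in MT (background 5.7%), 2 for age in LM (3.45%) and 1 for the interaction (2.58%). The median difference was 0.01 at 8 months, −0.03 at 4 months and 0.00 averaged, close to that of all probe sets. By averaged difference, the brighter genes were led by Itgb2, given above, and Vtn. Vtn encodes vitronectin, which blocks the terminal complex, and read 6.20 and 6.09 in MT8m and 5.70 and 6.02 in MT4m, against 6.35 and 7.12 in LM8m and 7.03 and 6.01 in LM4m. Its high arrays were the LM arrays with high meningeal genes, and its averaged difference was −0.62 ± 0.24. Csmd1, a membrane regulator of complement, differed by 0.55 ± 0.18, and Cd59a, which blocks the membrane attack complex, by −0.41 ± 0.17. C2, which forms the C3 convertase with C4, differed by −0.37 ± 0.21, C1qbp by −0.14 ± 0.09, Cfp (properdin) by 0.09 ± 0.19 and Csmd3 by −0.08 ± 0.10.

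**Figure D5:**
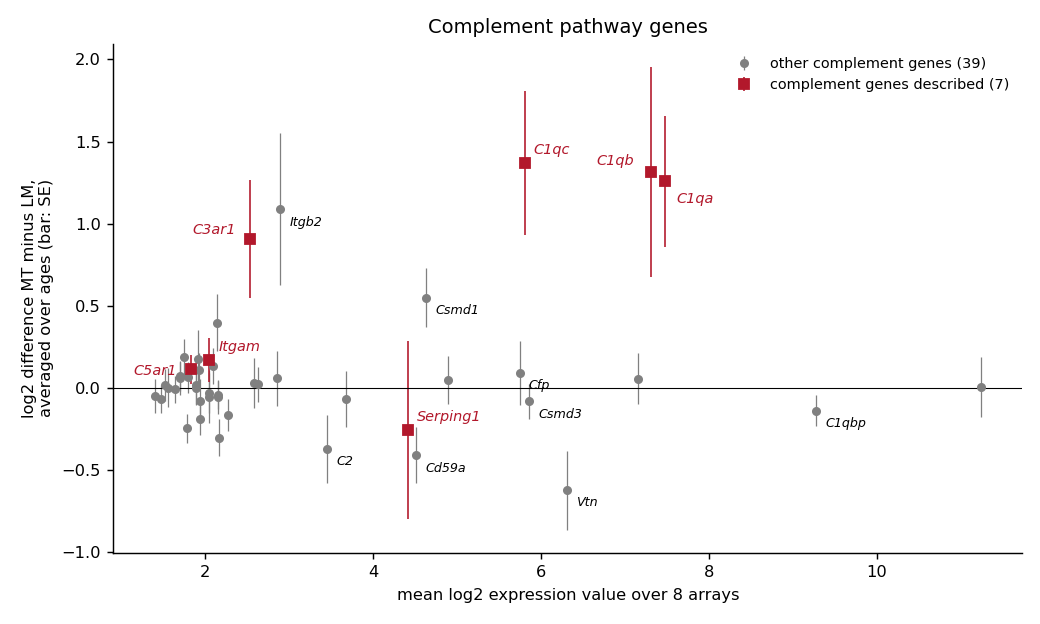
Averaged log2 genotype difference, MT minus LM (y axis, bars are SE), against the mean log2 value over 8 arrays (x axis) for the 7 complement genes described (squares) and 39 other complement genes (circles). C1qa, C1qb and C1qc lay between 1.26 and 1.37 and Itgb2 at 1.09, while Vtn lay at −0.62.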

How the data were processed

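RNA of hippocampus from female Tg6799 mice and littermates was hybridised to 8 arrays. The authors' deposited log2 values come from RMA (affy, whose version the sources used here do not give), and their offset is not known. Of 45101 probe sets, 64 controls were left out and 45037 tested. The annotation gave 1 symbol for 34945, several for 932 and none for 9160, and 34741 were matched to RefSeq by Entrez identifier. In R 4.3.3, limma 3.58.1 (lmFit, eBayes) estimated the 4 group means from all 8 arrays (4 residual degrees of freedom), two-sided, with Benjamini-Hochberg adjustment over all tested probe sets and a threshold of 0.05. Intervals are 95% intervals. The number of arrays limits the precision. The fit was tested on simulated data. Members, lists and named genes were chosen with earlier results of these data known. The members were always named. Of the other complement genes, those that passed and up to 8 with the largest averaged difference above the median brightness were named, and of likeness the 8 nearest genes. Alternatives were cyclic loess, dropping dim probe sets, a trended robust prior, 1 probe set per gene, the second brightest probe set, each array left out, 2 groups alone and a replicate block. Fits without both arrays in doubt and with crossed numbers were chosen after seeing the data.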

Additional observations from a re-analysis of the deposited data

Results flagged for a closer look

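C1qbp, which encodes a mitochondrial protein that binds C1q, was picked out because both MT8m arrays lay above the LM8m mean and both MT4m arrays below the LM4m mean. The genotype difference was 0.01 ± 0.13 (SE, n = 2 each) at 8 months, smaller than its error, and −0.30 ± 0.13 at 4 months. The gap of 0.31 did not pass limma's interaction test (adjusted p = 0.9999). This pattern was not particular to C1qbp. Masp1 also showed it, narrowly at 4 months, with differences of 0.34 at 8 months and −0.22 at 4 months. Cr2 showed the reverse, at −0.33 and 0.17.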

How the results depend on the processing

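The count of complement genes that passed was 0 in each comparison with all 8 arrays. Leaving out single arrays moved the median difference of the complement genes. At 8 months it ran from −0.13 without MT8m replicate 2 to 2.12 without the library labelled MT8m replicate 1. Averaged over ages it ran from 0.40 to 1.41, with the same arrays left out. At 4 months it ran from 0.54 without MT4m replicate 1 to 0.84 without MT4m replicate 2. Each of these fits leaves a single array in a group, so their counts of genes that passed are not compared here. Fitting the 4-month groups alone gave 1 gene. Leaving out both the library labelled MT8m replicate 1 and LM4m replicate 1 was chosen after seeing the data. It leaves a single array in MT8m and in LM4m, so only differences are given. Averaged over ages, these were 1.85 for C1qa, 2.35 for C1qb, 2.10 for C1qc and 1.40 for C3ar1. The dim filter, cyclic loess, the trended robust prior and 1 probe set per gene gave 0 genes throughout. With the second brightest probe set the averaged difference was 1.09 for C1qb, 0.67 for C3ar1 and 0.19 for C5ar1. Over all probe sets the number that passed at 8 months was 9, against 22 with the trended robust prior, 95 without the library labelled MT8m replicate 1 and 0 with the groups alone. At 4 months it was 0, against 24 with the groups alone, and averaged over ages 27, against 142 without that library and 5 without MT4m replicate 1. Whether the replicate numbers pair the arrays could not be decided. Deviations of same-numbered arrays correlated at 0.24 in LM and −0.17 in MT, and 2 arrays per group leave a single such value per genotype. With these numbers as a replicate block, 0 probe sets passed for either age difference or the interaction. With the MT numbers crossed, 2 passed for age in MT, 3 for age in LM and 1 for the interaction, and 0 of them were complement genes. No paired fit of the genotype differences could be made, since MT and LM share no number. Signs of values that passed in neither setting were not counted as reversals. With 2 arrays per group and no detection calls, small differences of dim genes such as C5ar1 and Itgam were not resolvable.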
